A study of Rattus norvegicus with 20 samples.

Results

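Signals that reach the precursors of fetal Leydig cells, which make the androgens of the embryo, were followed in the embryonic rat gonad through 7 listed genes: Dhh, Ptch1, Gli1, Pdgfa, Pdgfb, Pdgfra and Pdgfrb. All probe sets annotated to 1 of these symbols alone were taken. Of the 7 genes, 5 had a probe set, of 14217 genes that the platform annotation names with 1 symbol. These 5 had 7 probe sets (1 each for Dhh, Gli1, Pdgfa and Pdgfra and 3 for Pdgfrb) of 31042 without controls. No probe set carried Ptch1 or Pdgfb as its only symbol in the annotation used. Probe sets with several symbols were not searched for them, so neither gene was analysed here. All 7 probe sets passed a filter on low signal, which asked for the 40th percentile of an array on at least 2 arrays and left 22526 probe sets, and each of the 7 reached that percentile on all 20 arrays. The genes were not chosen from their values, but they were chosen with earlier results of these data known.

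RNA from testes of Sprague-Dawley rat embryos was hybridised to 20 oligonucleotide arrays, 2 for each of 10 groups. In utero, dams were injected daily with vinclozolin, a fungicide whose metabolites block the androgen receptor, at 100 mg/kg/day in DMSO, or with DMSO alone, from embryonic day 8 to 14. Embryos were dissected at 13, 14 and 16 days (E13, E14 and E16), so the E13 embryos came before the end of the injections and the E16 embryos 2 days after it. For the organ culture, gonads were explanted at E13 together with the mesonephros, and 3 days of culture followed in vinclozolin (50 µM) or its vehicle DMSO. Others were kept with flutamide, a drug that blocks the androgen receptor, at 0.5 µM or its vehicle ethanol. The mesonephros was taken off before RNA was extracted, and the vehicle went to the gonad of the other side of the same embryo. The submitters sexed the embryos by PCR of Sry. Whether an array held 1 animal or a pool is not stated, so the p-values reflect only how far arrays of a group lie apart, and the 2 arrays per group limit the precision.

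Desert hedgehog, encoded by Dhh, is a secreted protein that Sertoli cells make inside the testis cords. It binds Patched-1 (Ptch1) on interstitial cells, which releases Smoothened (Smo) and turns on the Gli transcription factors. Gli1 and Ptch1 are themselves target genes, so their level is widely used as a readout of the pathway. PDGF-A, encoded by Pdgfa, is made in the cords too and acts on PDGF receptor alpha (Pdgfra) of the interstitium, while PDGF-B (Pdgfb) from endothelial cells recruits pericytes that carry PDGF receptor beta (Pdgfrb). Mice without Dhh or without Pdgfra form few fetal Leydig cells.

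RefSeq promoters of the GRCr8 assembly, each 250 bases before to 50 after the gene start, were at hand for 5 of the 7 genes. The 4 below show the ligands and receptor whose levels moved between the stages, and Ptch1 as the hedgehog target that was not analysed on the arrays. Capitals mark a match to a motif searched on both strands.
Dhh promoter, chr7:131935303-131935602, minus strand: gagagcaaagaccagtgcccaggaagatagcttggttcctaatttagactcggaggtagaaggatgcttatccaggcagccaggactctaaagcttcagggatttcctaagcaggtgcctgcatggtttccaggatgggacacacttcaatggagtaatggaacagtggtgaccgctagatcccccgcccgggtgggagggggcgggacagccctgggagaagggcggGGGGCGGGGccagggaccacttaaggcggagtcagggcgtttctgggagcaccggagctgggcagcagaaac
Pdgfa promoter, chr12:20759116-20759415, plus strand: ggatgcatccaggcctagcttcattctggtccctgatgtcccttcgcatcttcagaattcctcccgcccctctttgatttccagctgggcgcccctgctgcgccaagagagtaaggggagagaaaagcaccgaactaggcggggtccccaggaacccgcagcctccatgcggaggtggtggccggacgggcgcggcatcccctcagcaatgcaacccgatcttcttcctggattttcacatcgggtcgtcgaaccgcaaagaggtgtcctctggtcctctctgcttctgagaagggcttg
Pdgfra promoter, chr14:33408467-33408766, minus strand: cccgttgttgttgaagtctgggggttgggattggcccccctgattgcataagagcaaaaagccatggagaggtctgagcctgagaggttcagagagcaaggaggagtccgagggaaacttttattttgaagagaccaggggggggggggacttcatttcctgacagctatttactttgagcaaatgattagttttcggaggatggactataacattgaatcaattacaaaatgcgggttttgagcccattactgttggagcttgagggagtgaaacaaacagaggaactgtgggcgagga
Ptch1 promoter, chr17:1555321-1555620, plus strand: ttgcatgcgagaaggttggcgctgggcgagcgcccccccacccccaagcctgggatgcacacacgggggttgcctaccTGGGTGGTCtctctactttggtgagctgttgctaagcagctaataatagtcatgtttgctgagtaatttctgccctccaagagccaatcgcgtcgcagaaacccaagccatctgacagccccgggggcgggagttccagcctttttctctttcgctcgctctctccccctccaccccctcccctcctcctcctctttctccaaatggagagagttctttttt
The GLI motif GACCACCCA was found in the Ptch1 promoter as TGGGTGGTC, 172 bases before the start, and in 0.385% of 33469 promoters of the same length. A GC box, GGGGCGGGG, lay 22 bases before the start of Dhh, and 9.73% of the promoters held one. The TATA box, TATAAA, was in none of the 5 promoters and in 14.2% of all. Neither the GLI motif nor the other 2 were found in the windows of Pdgfa, Pdgfra or Pdgfb, the last not printed. The motifs did not overlap one another in these promoters.

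Intensities were made with the MAS5 algorithm and lie on a linear scale, with 1 scale for all arrays in utero and another for each culture. Some of the arrays stood apart. Xist, the RNA of the inactive X chromosome, which male cells lack, read 896 on E13 vinclozolin replicate 1 and 758.6 on E13 vehicle replicate 1, against 17.9 and 20.4 on the arrays numbered 2. At E14 it read 32 to 489.9 and at E16 2.4 to 16.6. The E13 arrays numbered 1 were also the lower ones for Amh, a Sertoli cell hormone (372.4 and 106, against 1102.2 and 1484.7). Eif2s3y, a gene of the Y chromosome, read 2363.1 to 3182.4 at E13, 902.6 to 1248.9 at E14 and 2364.2 to 3495.7 at E16. In the vinclozolin culture Xist read 112.8 on vinclozolin replicate 2, against 5.1 on vinclozolin replicate 1 and 5.2 and 5.4 with DMSO. In the flutamide culture, whose scale is lower, Xist read 168.2 to 211.9 in both groups. There the 3' over 5' signal of beta-actin, which is higher in degraded RNA, was 9.08 to 11.1, against 1.73 to 3.90 on the other 16 arrays. The results that use the E13 and E14 arrays are therefore also given without some of them. Such fits cannot address the lower Eif2s3y at E14, which every array of that stage shared.

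All 7 probe sets were higher at E14 than at E13. From E14 to E16 the ligand genes Dhh and Pdgfa and all 3 probe sets of Pdgfrb fell, while Gli1 and Pdgfra, the target and receptor genes of the interstitial cells, passed the test in neither direction. The steroidogenic genes of the Leydig cell had their main rise in the later step. Differences are on the scale log2(intensity + 16), which understates changes of low signals, and were tested with limma in 1 fit of all arrays. A difference was called at a Benjamini-Hochberg adjusted p under 0.05 over all 22526 tested probe sets. Each stage difference is the mean over vinclozolin and vehicle arrays, so 4 arrays stand against 4. In this fit 25.1% of all tested probe sets were called between E13 and E14 (13.1% higher, 12% lower), and 7 of 7 were called higher here. Between E14 and E16 41.5% were called (23.2% lower), and 5 of 7 were called lower. Between E13 and E16 18.7% were called, and 2 of 7 were, both higher (9.45% of all). The arrays of E14 lay wholly above those of E13 for 6 of the 7 (12.3% of all tested probe sets), and those of E16 wholly below E14 for 3 (19.1% of all). In bulk RNA, fewer cells of a type and less RNA per cell cannot be told apart.

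**Figure D1:**
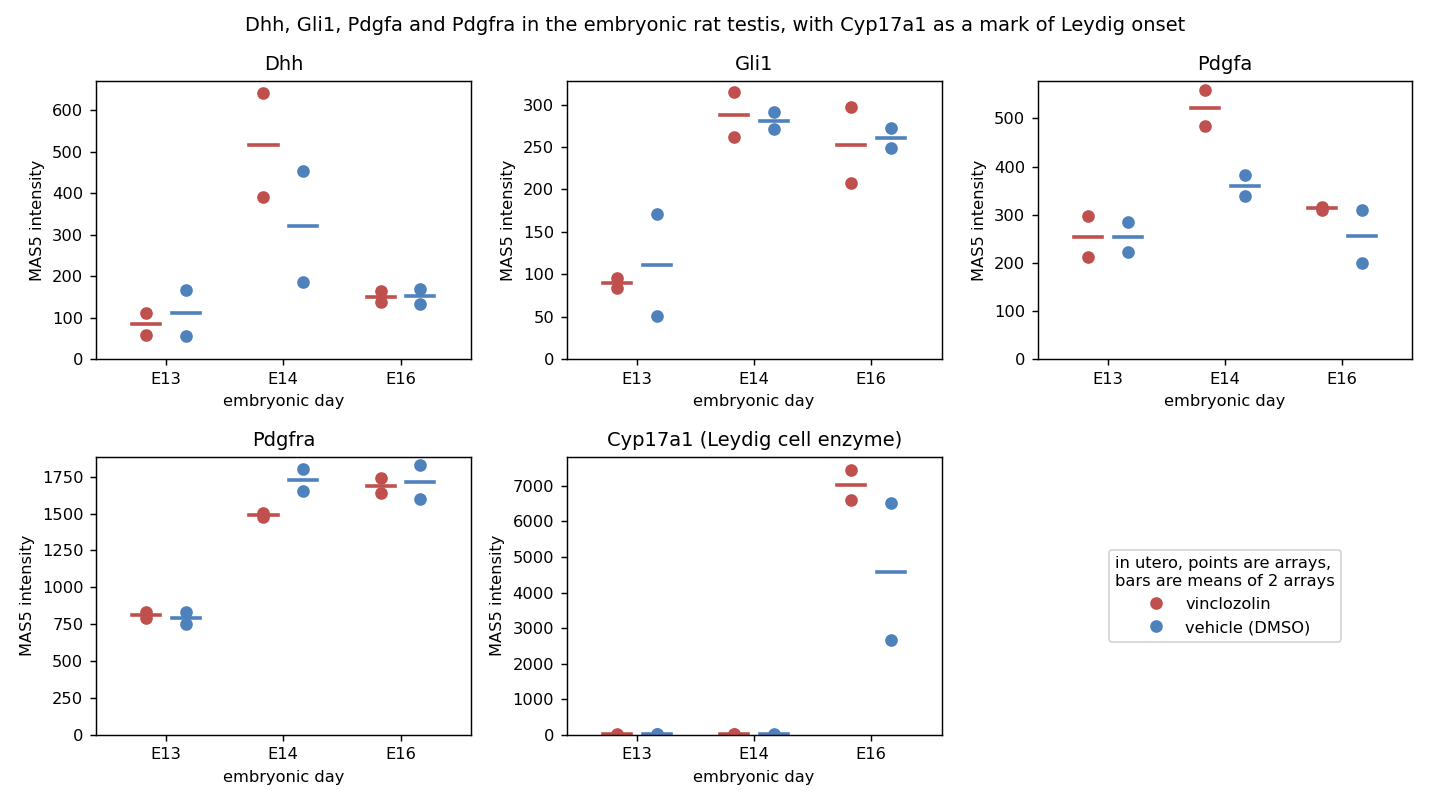
MAS5 intensity (linear axis from 0) of Dhh, Gli1, Pdgfa, Pdgfra and, as a mark of Leydig onset, Cyp17a1 at E13, E14 and E16. Points are arrays and bars are means of 2 arrays, vinclozolin in red and vehicle in blue. Dhh and Pdgfa are highest at E14, Gli1 and Pdgfra have overlapping arrays at E14 and E16, and Cyp17a1 is at 1.7 to 35.2 until E14 and at 2657 or more at E16.

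The ligand Dhh read 56.9 and 111.3 with vinclozolin and 56.3 and 165.8 with vehicle at E13. At E14 it read 641.3 and 392.0 with vinclozolin and 185.7 and 454.7 with vehicle. At E16 it was back at 137.3 and 164.2 with vinclozolin and 170.1 and 132.0 with vehicle. Every E14 array lay above all E13 and all E16 arrays, although E14 vehicle replicate 1 was only a little above them, and the E13 and E16 arrays overlapped. Over both treatments Dhh averaged 97.6 ± 52.3 at E13, 418 ± 188 at E14 and 151 ± 19.0 at E16 (SD, n = 4 each). The step from E13 to E14 was a log2 difference of 1.93 (SE 0.29, adjusted p = 0.000347), or 3.80-fold, and the step from E14 to E16 was -1.27 (SE 0.29, adjusted p = 0.00230). E16 was 0.66 above E13 (95% interval 0.051 to 1.27, adjusted p = 0.125), which did not pass. The rise to E14 was 1.39 without both E13 arrays numbered 1. It was 1.87 without the array of higher summed Xist in each E13 and E14 group, a set chosen after the data were seen. The sum over Xist probe sets left out E14 vehicle replicate 1 (464.5, against 253.2), the low array for Dhh. On the single Xist probe set given above, replicate 2 was the higher one (184.4, against 174.9).

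In the vehicle arrays alone, with 2 arrays a stage, fewer calls were made, and 2.93% of all probe sets passed between E13 and E14, 22% between E14 and E16 and 8.55% between E13 and E16. Dhh then differed by 1.43 (SE 0.41, adjusted p = 0.0684) and by -0.89 (SE 0.41, adjusted p = 0.127), so neither step passed. In the vinclozolin arrays alone, where 16.2% and 26.8% of all probe sets passed in these steps, the values were 2.43 (adjusted p = 0.00193) and -1.64 (adjusted p = 0.00746). Vehicle alone called 3 of 7 in the first step, which were Gli1, Pdgfra and the Pdgfrb probe set 1370642_s_at. It called 3 of 7 in the second, all of them probe sets of Pdgfrb, and 2 of 7 between E13 and E16, Gli1 and Pdgfra.

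Of the Sertoli cell genes, some moved as Dhh did and some did not. The summed intensity of the 5 measured Sertoli markers of 7 listed (Amh, Dmrt1, Cldn11, Gata4 and Wt1) was 5348.7 to 6846.1 at E13 and 5922.2 to 6954.2 at E16. At E14 it was 13094.6 and 11011.3 with vinclozolin and 5873.6 and 11925.6 with vehicle, and the low vehicle array was the one on which Dhh was low. Amh rose by 2.91 (adjusted p = 0.00168) and Cldn11, a tight junction gene, by 0.63 (adjusted p = 0.00179) between E13 and E14, and 3 of the 5 were not called, among them Wt1, a transcription factor, at -0.11. Between E14 and E16, when Dhh fell, Wt1 fell by 0.73 (adjusted p = 3.13e-05) and Gata4, another transcription factor, by 0.65 (adjusted p = 0.0324). Cldn11 rose further by 0.91 (adjusted p = 3.53e-05), and Amh was not called (-0.96, adjusted p = 0.183). In every group in utero, each of the 5 reached the 40th percentile on at least 1 array. The part of the Sertoli cells in the E14 values of Dhh was not tested.

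Gli1, the transcription factor and hedgehog target, read 83.7 and 95.2 with vinclozolin and 50.5 and 170.9 with vehicle at E13. It read 314.5 and 261.6 with vinclozolin and 270.7 and 291.1 with vehicle at E14, then 296.7 and 207.5 with vinclozolin and 272.6 and 248.6 with vehicle at E16. All E14 and E16 arrays were above all E13 arrays, and the E14 and E16 arrays overlapped. The rise between E13 and E14 was 1.47 (SE 0.22, adjusted p = 0.000365), or 2.77-fold. Between E14 and E16 the difference was -0.15 (95% interval -0.62 to 0.32, adjusted p = 0.622), so a fall of up to 0.62 lies within the error. E16 stood 1.32 above E13 (SE 0.22, adjusted p = 0.000514), where Dhh did not pass. The difference between the Dhh and Gli1 time courses was not tested. Without both E13 arrays numbered 1 the rise to E14 was 1.06 (adjusted p = 0.000805).

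Of the other hedgehog pathway genes listed, 9 were measured. Shh and Hhip had a probe set that did not pass the filter, and Gli3 and Hhat had no probe set with those symbols alone. Between E13 and E14, 2 of 9 rose: Gli2, a transcription factor of the pathway, by 0.55 (adjusted p = 0.0277), and Disp1, which releases the ligand from the producing cell, by 0.47 (adjusted p = 0.0368). The median of the 9 was 0.39, against 0.073 over all tested probe sets. Between E14 and E16, 4 of 9 fell, namely Disp1 (-0.76), Smo, the signal transducer (-0.63), Sufu, which holds Gli proteins back (-0.65), and Kif7, a cilium motor protein (-0.37). The median of the 9 was -0.37, against -0.060 over all. Of the 9, 0 were called between E13 and E16 by limma and 1 had an unadjusted p under 0.05, and Smo had the smallest adjusted p (0.0682, at a difference of -0.37). The fallen genes thus include both a transducer and an inhibitor of the pathway. The inhibitor, Sufu, missed the 40th percentile on both arrays of the E16 vinclozolin group, so the size of its fall is only rough. Ihh and Cdon, also among the 9, missed it in several groups in utero.

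Pdgfa, the ligand from the cords, read 212.5 and 296.5 with vinclozolin and 223.3 and 285.5 with vehicle at E13. At E14 it read 559.6 and 484.5 with vinclozolin and 338.3 and 382.1 with vehicle, and at E16 310.3 and 316.9 with vinclozolin and 199.9 and 310.3 with vehicle. Like Dhh, it was higher on every E14 array than on any E13 or E16 array. It rose by 0.74 between E13 and E14 (SE 0.16, adjusted p = 0.00412) and fell by 0.60 between E14 and E16 (SE 0.16, adjusted p = 0.00779). E16 differed from E13 by 0.14 (95% interval -0.21 to 0.49, adjusted p = 0.602). The first step was 0.55 (adjusted p = 0.0522) without both E13 arrays numbered 1 and was then no longer called. In vehicle arrays alone both steps missed the threshold, at 0.48 (adjusted p = 0.246) and -0.50 (adjusted p = 0.133). Across the 12 arrays in utero the Pearson correlation of Pdgfa with Dhh was 0.86, as a description, since the arrays share stages and preparations.

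Pdgfra, the receptor of PDGF-A, had the smallest standard errors of the 7 probe sets. It read 791.0 and 831.0 with vinclozolin and 832.0 and 753.5 with vehicle at E13, and 1475.3 and 1502.6 with vinclozolin and 1803.4 and 1652.3 with vehicle at E14. At E16 it read 1638.5 and 1741.8 with vinclozolin and 1831.7 and 1596.0 with vehicle. The E14 and E16 arrays overlapped, and none came near the E13 arrays. The rise between E13 and E14 was 0.99 (SE 0.098, adjusted p = 2.98e-05), or 1.98-fold. E16 was 1.07 above E13 (SE 0.098, adjusted p = 1.16e-06) and differed from E14 by 0.083 (95% interval -0.12 to 0.29, adjusted p = 0.526). That last difference was -0.053 under quantile normalisation, so its sign is not settled. The 2 rises held without both E13 arrays numbered 1, at 1.00 and 1.09.

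The 5 measured interstitial progenitor markers of 7 listed took several courses beside Pdgfra. Wnt5a, a secreted Wnt ligand, rose by 1.39 between E13 and E14 (adjusted p = 0.000123) and was the 1 of 5 called in that step. Between E14 and E16, 4 of 5 rose, among them Ogn by 3.57 and Dcn by 2.71, both genes of the extracellular matrix. The summed intensity of the list was 6690.5 to 7051.4 at E13, 6440.2 to 8520.2 at E14 and 10783.8 to 12822.3 at E16. The sum thus had its main rise after that of Pdgfra, but the genes did not share it. Wnt5a rose by only 0.55 between E14 and E16, and the 1 gene not called in that step was at -0.22. Dcn made up much of the gain in the sum, at 190.7 to 289.6 at E13 and 2502.7 to 3508.6 at E16. The part of these cells in the Pdgfra values was not tested.

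Pdgfrb was read by 3 probe sets. The probe set 1370642_s_at read 242.4 and 205.4 with vinclozolin and 272.9 and 197.0 with vehicle at E13, 516.9 and 394.7 with vinclozolin and 562.4 and 457.8 with vehicle at E14, and 269.1 and 253.2 with vinclozolin and 137.1 and 259.6 with vehicle at E16. Its E14 arrays lay above all others in utero. It rose by 1.02 (SE 0.18, adjusted p = 0.000980) and then fell by 1.05 (SE 0.18, adjusted p = 0.000261). For 1379211_at and 1391394_s_at, which were designed on the same source sequence, the rises were 0.91 (adjusted p = 0.0116) and 1.15 (adjusted p = 0.00116). Their later falls were -0.90 (adjusted p = 0.00664) and -1.07 (adjusted p = 0.000722). The first rise of 1379211_at was no longer called when replicate 2 of either E13 group was left out, at 0.67 (adjusted p = 0.0672) without the vinclozolin array and 0.70 (adjusted p = 0.0526) without the vehicle array. Between E13 and E16 the differences of the 3 probe sets were -0.030, 0.0097 and 0.078, and none was called. Over both treatments all 3 probe sets were therefore highest at E14, less clearly for 1379211_at and 1391394_s_at. The E14 arrays of 1379211_at overlapped those of E13 and E16, and those of 1391394_s_at overlapped E16. In vehicle arrays alone the rises of these 2 were 0.73 (adjusted p = 0.229) and 1.09 (adjusted p = 0.0559). In vinclozolin arrays alone their falls were -0.49 (adjusted p = 0.304) and -0.60 (adjusted p = 0.147), and none of these was called.

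Vessel genes moved in the same steps. Of the 6 pericyte markers, 4 rose between E13 and E14: Cspg4 by 1.42, Kcnj8 by 1.06, Abcc9 by 0.81 and Mcam by 0.70, with a median of 0.76 for the list. Between E14 and E16, 3 fell (Cspg4 at -1.07, Mcam at -0.87 and Notch3 at -0.67), and 2 rose (Kcnj8 by 1.01 and Abcc9 by 0.65). Their summed intensity was 391.5 to 522.1 at E13, 706.9 to 880 at E14 and 619.5 to 678.4 at E16. Of the 7 measured endothelial markers, 4 rose and then 4 fell, among them Tie1, a receptor of vessel endothelium, at 1.15 and then at -1.11. Tubule markers of the mesonephros, the neighbouring tissue, stood at 294.9 to 453.3 at E13, 410.5 to 972.8 at E14 and 134.1 to 382.2 at E16 in summed intensity of 5 genes. Genes of the ovarian supporting cell stood at 669.2 to 747, 1143.2 to 1781.6 and 630.5 to 714.7 in 4 genes. Among the pericyte markers, Abcc9 missed the 40th percentile on both arrays of each E13 group, and Kcnj8 on those of the E13 vinclozolin group. Among the tubule markers Pax2, Cdh16 and Lhx1 missed it in both E16 groups, Cdh16 in both E13 groups, and Lhx1 in the E13 and E14 vinclozolin groups. Of the ovarian genes Foxl2 missed it in both E16 groups and the E14 vehicle group, and no endothelial marker missed it in a group in utero. The part of these cells in the E14 peak of Pdgfrb was not tested.

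Of the other PDGF genes, all 3 listed were measured. Pdgfrl, a receptor-like protein, fell by 0.80 between E13 and E14 (adjusted p = 0.0318), and E16 was 1.07 below E13 (a difference of -1.07, adjusted p = 0.00797). The ligand genes Pdgfc and Pdgfd were not called in any stage step, with differences of -0.53 (adjusted p = 0.0578) and -0.47 (adjusted p = 0.289) in the first. None of the 3 rose with Pdgfa and the receptors.

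Leydig onset was read from 5 genes. Cyp17a1, the 17-alpha-hydroxylase of androgen synthesis, read 1.7 to 35.2 on the 8 arrays of E13 and E14. At E16 it read 7448 and 6601.3 with vinclozolin and 2657 and 6521.8 with vehicle. Its log2 difference was 0.29 between E13 and E14 (adjusted p = 0.478) and 7.41 between E14 and E16 (adjusted p = 4.14e-11). In the first step 2 of 5 rose, Hsd3b1, a steroid dehydrogenase, by 0.90 and Cyp11a1, the side-chain cleavage enzyme, by 0.56. E14 vehicle replicate 1 was the highest E14 array for both. Hsd3b1 read 524.3 there, against 195.6 to 253.6 on the other E14 arrays and up to 215.2 at E13. Cyp11a1 read 67 there, against 33.5 to 38.9 on the other E14 arrays and up to 26.6 at E13. In the second step 5 of 5 rose, Insl3, the hormone of testis descent, by 5.44, Cyp11a1 by 5.29, Hsd3b1 by 4.34 and Star, which carries cholesterol into the mitochondrion, by 2.93. The rises of the interstitial genes Gli1 and Pdgfra were called on the day when Cyp17a1 was still at 35.2 or below. Cyp11a1, Cyp17a1 and Insl3 lay under the 40th percentile at E13, and Cyp17a1 and Insl3 also at E14, so the sizes of their changes, in the second step too, depend on the pseudocount and are only rough. Nr5a1, the steroidogenic regulator that Sertoli cells express as well, fell by 1.01 in the second step (adjusted p = 0.00163), as Dhh did.

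**Figure D2:**
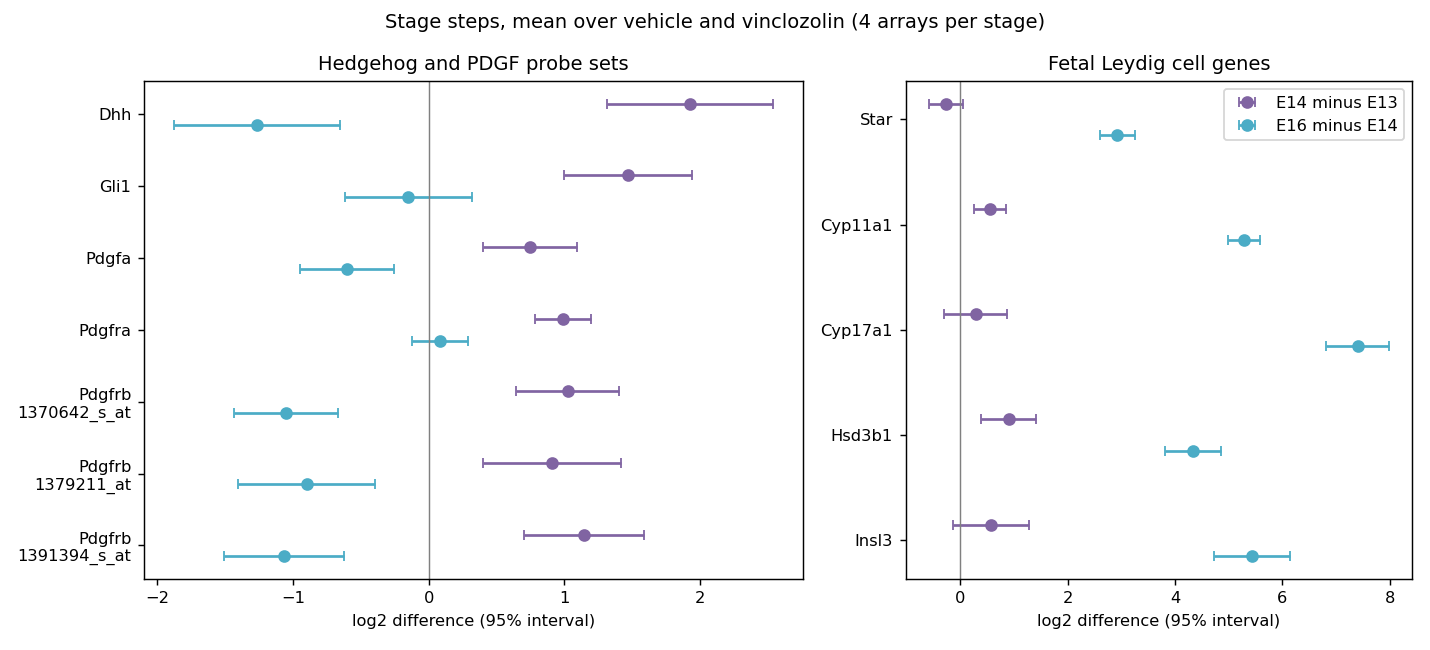
Log2 differences with 95% intervals for the step E13 to E14 (purple) and E14 to E16 (blue), with 4 arrays per stage. On the left all 7 hedgehog and PDGF probe sets lie above 0 in the first step, and in the second only Gli1 and Pdgfra have intervals across 0. On the right the 5 Leydig cell genes move mainly in the second step, by 2.93 to 7.41, where the sizes for Cyp17a1 and Insl3 depend on the pseudocount.

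By the Pearson correlation of log2 values over the 12 arrays in utero, the genes most like Dhh were Dtx4 (0.98), Fpgs (0.97) and Cebpa (0.97), of 16291 probe sets compared. For Gli1 they were Col6a3 (0.96), Hic1 (0.96) and Phf19 (0.96). For Pdgfa they were Bahd1 (0.96), Tnrc6c (0.95) and Dpp6 (0.95). Those for Pdgfra were Aqp1, Wnt5a and Col6a1, at 0.97, 0.96 and 0.96, and those for the Pdgfrb probe set 1370642_s_at were Tmem259, Ino80e and Dchs1, each at 0.96. Among the measured genes themselves, Gli1 correlated with Pdgfra at 0.84 and with Dhh at 0.77, and Pdgfra with Dhh at 0.55. These are descriptions over arrays that share stages, and the best of so many probe sets are high by choice.

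Testes kept for 3 days in culture from E13 gave clear signals of Dhh, Gli1 and Pdgfra, with array ranges that partly overlapped those in utero. Because the cultures were scaled apart from the arrays in utero, intensities were divided by the trimmed mean of their array, and the levels are set side by side with no test. Dhh stood at 1.95 and 1.86 in DMSO culture and averaged 1.76 in ethanol culture. In utero it stood at 3.05 and 1.87 in E14 testes with vinclozolin and at 0.88 and 2.16 in those with vehicle. Its means of 1.90 in DMSO and 1.76 in ethanol culture were thus above the E14 vehicle mean of 1.52, which holds 1 low array, and below the E14 vinclozolin mean of 2.46. The vehicle means of Dhh at E13 and E16 were 0.53 and 0.72. Gli1 averaged 1.52 in DMSO culture and 1.90 in ethanol culture, against 0.53, 1.34 and 1.24 in vehicle testes of E13, E14 and E16. Pdgfra averaged 9.59 and 11.6 in the same cultures, against 3.77, 8.23 and 8.16. For both genes the 2 ethanol arrays lay above all arrays in utero, while the lower DMSO array lay within their range. The arrays of the flutamide culture, ethanol included, had Xist signal and a 3' over 5' signal of beta-actin of 9.08 to 11.1. In utero that beta-actin signal was 1.73 to 3.47. Division by the trimmed mean does not address such differences, and their part in the ethanol levels here and below was not tested. Pdgfa averaged 1.84 and 1.51 in culture and 1.21, 1.71 and 1.21 in utero.

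The 3 probe sets of Pdgfrb gave different orders of culture and in utero levels. The probe set 1370642_s_at averaged 0.88 in DMSO culture and 1.45 in ethanol culture, against 1.12, 2.43 and 0.94 in vehicle testes of E13, E14 and E16, so neither culture mean reached that of E14. For 1391394_s_at the culture means were 0.36 and 0.35, against 0.33, 0.75 and 0.21, again below E14. For 1379211_at they were 0.82 and 1.03, against 0.43, 0.74 and 0.26, so both lay above all 3 vehicle means. The vinclozolin testes of E14 had a higher mean of 1.41 for that probe set. Endothelial marker intensities summed to 983 to 1106 on the 4 arrays of the vinclozolin culture, against 1732.9 to 2978.8 in utero. On the arrays of the flutamide culture, whose trimmed mean is 107 against 210.1 in utero, they summed to 807.1 to 871.1. Sertoli marker intensities summed to 8961 to 11860.5 in the vinclozolin culture and to 3881.4 to 4361.3 in the flutamide culture. These sums were not put on 1 scale, so those of the flutamide culture cannot be read against the arrays in utero. The steroidogenic genes were on in culture, with Cyp17a1 at 666.5 and 955 in DMSO and 582.3 and 547.2 in ethanol. The part of these cells in the culture levels was not tested.

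**Figure D3:**
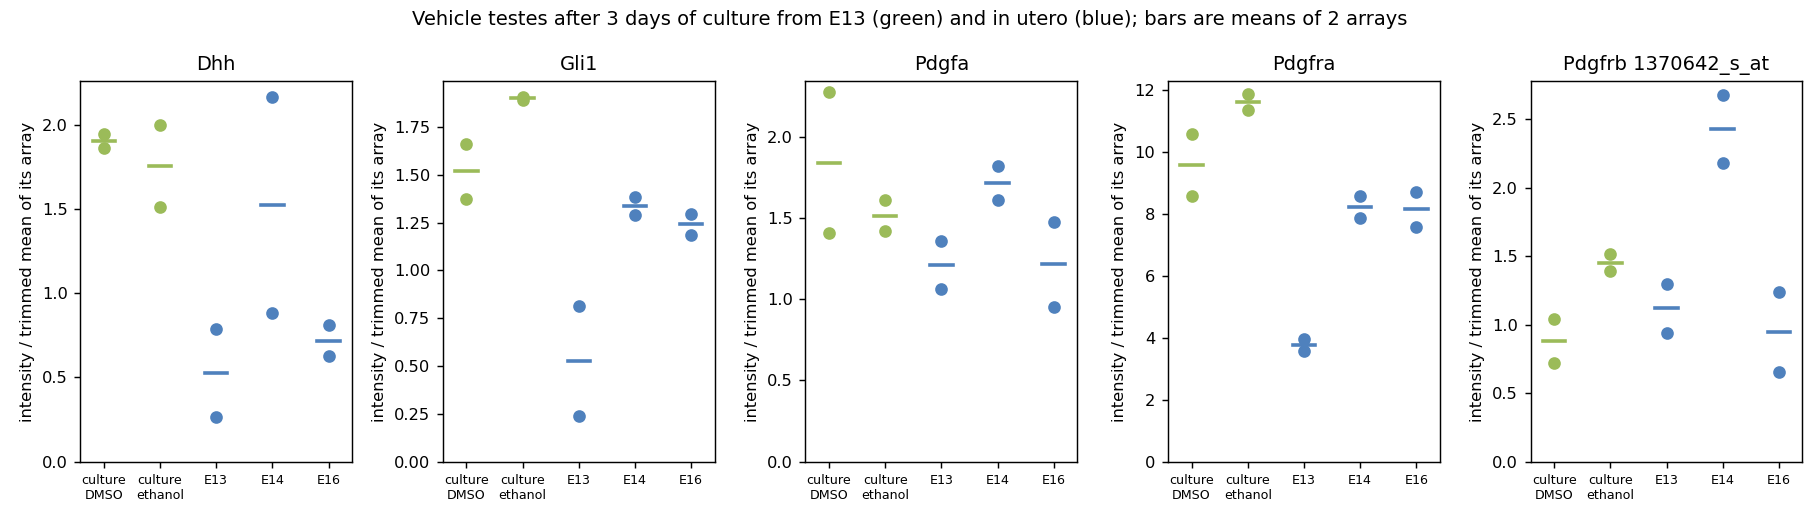
Intensity divided by the trimmed mean of its array (linear axis from 0) in vehicle testes after 3 days of culture (green, DMSO and ethanol) and in utero at E13, E14 and E16 (blue). Points are arrays and bars are means of 2. Dhh, Gli1 and Pdgfra have culture means above the 3 vehicle means in utero, although 1 of the E14 arrays of Dhh, at 2.16, is above all its culture arrays. Pdgfrb 1370642_s_at does not reach its E14 mean of 2.43. The ethanol arrays have a higher 3' over 5' signal of beta-actin than all arrays in utero, which the division does not address.

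No probe set of the 7 was called for an antiandrogen in any of the 7 comparisons. In the vinclozolin comparisons with limma, 0%, 0.00444% and 0% of all probe sets were called at E13, E14 and E16 and 0% as the mean of the stages, in culture and in the test of a difference between stages. Flutamide called 0% as well. At an unadjusted p under 0.05 the shares of all probe sets were 1.78%, 5.5%, 6.69%, 4.1%, 2.71% and 4.46% in the order just given, and 2.19% for flutamide. Of the 7 probe sets here, 0, 2, 2, 2, 0 and 1 had such a p in that order, and 1 did for flutamide. The comparisons in utero all use the same vehicle arrays of their stage, and the mean of stages is made of the other 3. A p that misses the threshold does not show that values were equal, and the intervals give what could have been missed.

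For the hedgehog genes the intervals were wide. Dhh differed between vinclozolin and vehicle by -0.25 at E13 (95% interval -1.11 to 0.61), 0.75 at E14 (-0.11 to 1.61) and 0.0021 at E16 (-0.86 to 0.86). In culture it differed by -0.100 with vinclozolin (-0.96 to 0.76) and by -0.078 with flutamide (-0.94 to 0.78). Vinclozolin replicate 2 of the culture, the array with Xist signal, read 319.2 for Dhh, against 467.4 on replicate 1. The E14 value had an unadjusted p of 0.0843, and the arrays overlapped, with 392.0 under vinclozolin and 454.7 under vehicle. It was 0.14 without E14 vehicle replicate 1 and 1.36 without E14 vehicle replicate 2. Gli1 differed by -0.082, 0.030 and -0.064 at the 3 stages, by 0.021 with vinclozolin in culture and by 0.030 with flutamide. Over these 5 comparisons the Gli1 intervals lay between -0.75 and 0.69, so a change of 1 log2 unit lies outside each of them, while those of Dhh reached -1.11 and 1.61.

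**Figure D4:**
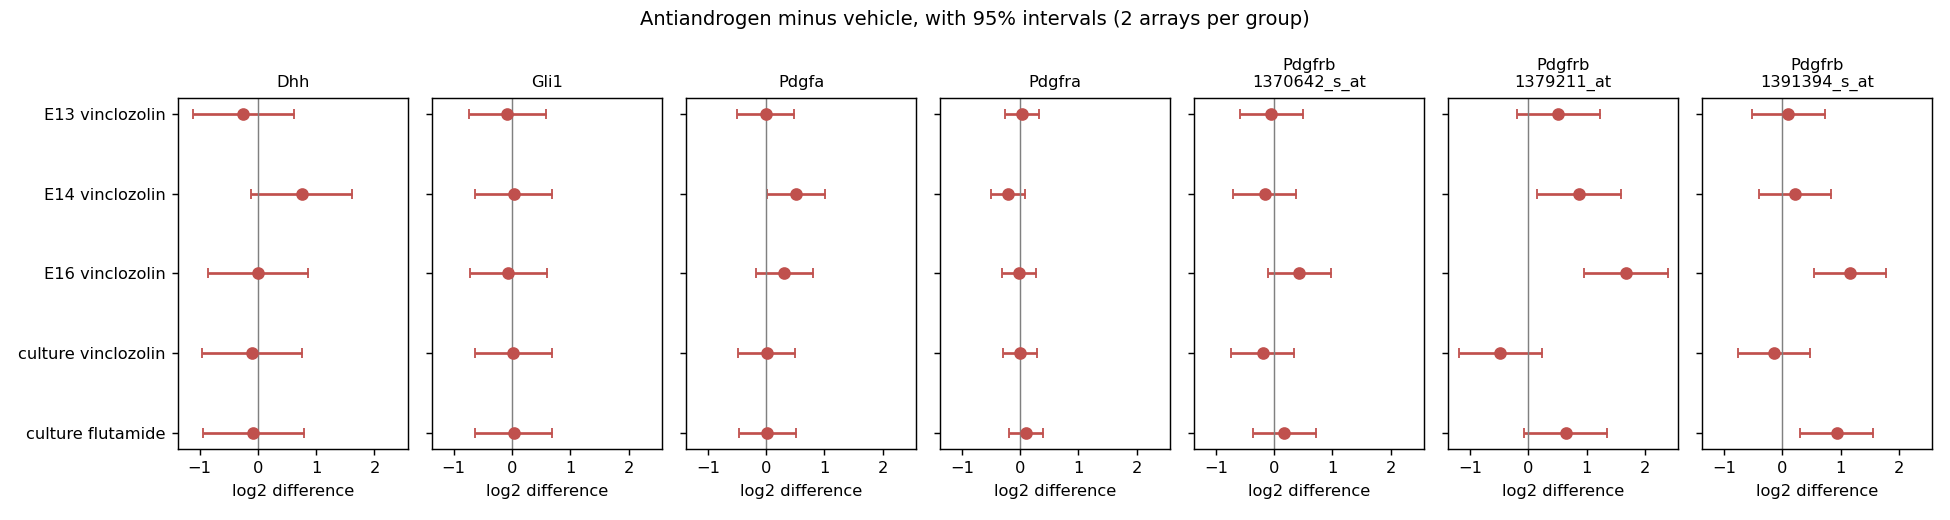
Log2 difference of antiandrogen minus vehicle for each probe set, with 95% intervals and 2 arrays per group, in utero at E13, E14 and E16 and in culture. Most intervals hold 0, and those of Pdgfa at E14, of Pdgfrb 1379211_at at E14 and E16 and of 1391394_s_at at E16 and with flutamide lie above it, none of them called after adjustment.

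For the PDGF ligand and its receptor alpha the difference of each gene was largest in size at E14. There Pdgfa read 559.6 and 484.5 with vinclozolin, both above 338.3 and 382.1 with vehicle, a log2 difference of 0.52 (SE 0.23, unadjusted p = 0.0412, adjusted p = 0.888). Of all probe sets 14% had such non-overlapping higher arrays at E14. At E16 Pdgfa differed by 0.31 (95% interval -0.18 to 0.80), and its arrays overlapped. As the mean of stages Pdgfa differed by 0.27 (unadjusted p = 0.0583, adjusted p = 0.998). Pdgfra was lower on both E14 vinclozolin arrays than on both vehicle arrays, by -0.21 (unadjusted p = 0.146, adjusted p = 0.893), as were 13.1% of all. Cell type markers differed in the same arrays, none called. The Sertoli genes Gata4 and Cldn11 differed by 0.85 (unadjusted p = 0.0193) and 0.40 (unadjusted p = 0.0340), and the interstitial progenitor genes Ogn and Dcn by -1.15 (unadjusted p = 0.00560) and -0.82 (unadjusted p = 0.0660). E14 vehicle replicate 1 stood apart from vehicle replicate 2 in summed tubule markers (972.8, against 422), macrophage markers (740.7, against 375.8) and adrenal markers (124.9, against 32). The part of these cells in the values of Pdgfa and Pdgfra was not tested. In culture Pdgfa differed by 0.0095 with vinclozolin (95% interval -0.48 to 0.50) and 0.024 with flutamide (-0.47 to 0.52), and Pdgfra by -0.0069 (-0.30 to 0.29) and 0.10 (-0.19 to 0.39).

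The largest differences were those of Pdgfrb, none of them called, and differences between its probe sets were not tested. At E16, 1379211_at read 257.1 and 161.7 with vinclozolin, against 39.9 and 68.4 with vehicle. The probe set 1391394_s_at read 152.3 and 90.3 with vinclozolin, against 34.9 and 54.4 with vehicle. Both had higher vinclozolin arrays without overlap, as had 24.3% of all probe sets at E16. The third, 1370642_s_at, read 269.1 and 253.2 with vinclozolin, against 137.1 and 259.6 with vehicle, and overlapped. The log2 differences were 1.68 (SE 0.34, 3.21-fold, unadjusted p = 0.000124, adjusted p = 0.470), 1.16 (SE 0.30, 2.23-fold, unadjusted p = 0.00110, adjusted p = 0.508) and 0.43 (SE 0.26, unadjusted p = 0.110, adjusted p = 0.808). By unadjusted p, 1379211_at ranked 4 and 1391394_s_at ranked 44 of 22526 at E16. On E16 vehicle replicate 1 these 2 lay at percentiles 42.9 and 40.4 of the array, close to the 40th percentile of the filter. The folds are of intensity + 16, so for such low signals their sizes depend on the pseudocount and are only rough. Summed marker intensities of several cell types also differed without overlap at E16, where 39.2% of all single probe sets did so in either direction. Tubule markers of the mesonephros stood at 382.2 and 331.3 with vinclozolin, against 134.1 and 216.1 with vehicle, and fetal Leydig markers at 20109.6 and 18510.1, against 10320.2 and 18113.2. Pericyte markers stood at 619.5 and 622.5 with vinclozolin, against 637.4 and 678.4 with vehicle, and peritubular markers at 2729.4 and 3096.5, against 3429.7 and 3907.2. Interstitial progenitor markers stood at 11305.9 and 10783.8 with vinclozolin, against 12049.4 and 12822.3 with vehicle. Kit, the 1 germ cell gene measured, stood at 50.5 and 75.2, against 10.2 and 34.8. The sums of Sertoli, endothelial, ovarian supporting, macrophage and adrenal markers overlapped. The part of these cells in the Pdgfrb values was not tested.

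The 3 probe sets were also read at the other stages. At E14, 1379211_at read 269.5 and 321.2 with vinclozolin, against 174.2 and 135.0 with vehicle, a difference of 0.87 (unadjusted p = 0.0199, adjusted p = 0.888). At E13 it read 188.2 and 88.6 with vinclozolin, against 119.7 and 60.9 with vehicle, and overlapped (0.52, unadjusted p = 0.146). For 1391394_s_at the differences were smaller, 0.22 at E14 (unadjusted p = 0.469) and 0.10 at E13 (unadjusted p = 0.727). Those of 1370642_s_at were below 0, at -0.16 at E14 (unadjusted p = 0.535) and -0.053 at E13 (unadjusted p = 0.840). As the mean of the 3 stages 1379211_at differed by 1.02 (SE 0.20, unadjusted p = 7.13e-05, adjusted p = 0.536) and ranked 3 of 22526. Without both E13 arrays numbered 1 this was 1.00 (adjusted p = 0.195), and the 12 fits that leave out 1 array each gave 0.86 to 1.18. For 1391394_s_at the mean of the stages was 0.49 (unadjusted p = 0.0100, adjusted p = 0.998), and for 1370642_s_at it was 0.072 (unadjusted p = 0.631, adjusted p = 0.998). A difference of the effect between stages was not called for any of the 3 (F = 3.10, 3.85 and 1.52 for 1379211_at, 1391394_s_at and 1370642_s_at, adjusted p = 0.983 each).

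In culture, the vinclozolin arrays did not stand above their vehicle. The probe set 1379211_at read 107.6 and 133.0 with vinclozolin, against 131.3 and 226.6 with DMSO, a difference of -0.48 (95% interval -1.19 to 0.24). The other 2 differed by -0.14 and -0.20. With flutamide, 1391394_s_at read 88.8 and 80.0, against 30.6 and 43.4 with ethanol, a difference of 0.93 (SE 0.30, 1.91-fold, unadjusted p = 0.00587, adjusted p = 1). It ranked 52 of 22526 by unadjusted p. Ethanol replicate 1 lay at percentile 43.3 of its array, so the size of this difference too is only rough. For 1379211_at the flutamide values were 186.6 and 173.8, against 101.4 and 118.5 with ethanol (0.64, unadjusted p = 0.0757), and for 1370642_s_at 176.8 and 176.0, against 161.9 and 148.7 with ethanol (0.17, unadjusted p = 0.519). All 3 were higher on both flutamide arrays than on both ethanol arrays, as were 21.1% of all probe sets. Whether the 2 compounds differ in culture was not tested.

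**Figure D5:**
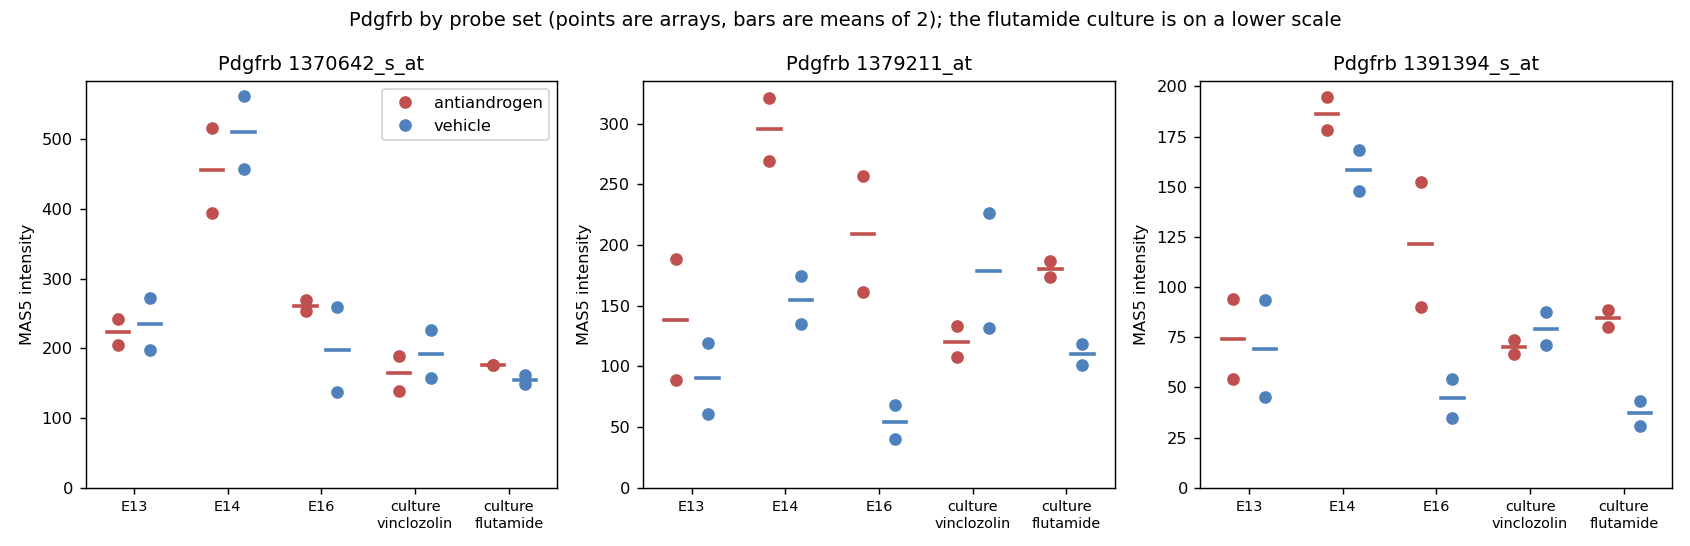
MAS5 intensity (linear axis from 0) of the 3 Pdgfrb probe sets in each experiment, antiandrogen in red and vehicle in blue. Points are arrays and bars are means of 2, and the flutamide culture is on a lower scale. Of the stages in utero, E14 has the highest mean for each probe set and treatment. At E16 1379211_at and 1391394_s_at show separate vinclozolin and vehicle arrays, where 1370642_s_at overlaps.

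The other hedgehog and PDGF genes followed the same pattern of no calls, with 0 of 9 and 0 of 3 called by limma for vinclozolin as the mean of stages, and also 0 and 0 at an unadjusted p under 0.05. Stage by stage, 0 of 9 and 1 of 3 had such a p at E14, and 0 of each at E13 and E16. The 1 was Pdgfd at E14, a difference of -1.10 (unadjusted p = 0.0247, adjusted p = 0.888), whose signal missed the 40th percentile on all 4 arrays. As the mean of stages, their medians were -0.036 and -0.17, against 0.012 over all tested probe sets.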

How the data were processed

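The deposited table holds intensity per probe set, linear, computed by the authors with MAS5 and GCOS per the submitters' processing notes (versions not given in the sources used here). A mean trimmed by 2% at both ends came to 210.1 on each of the 12 arrays in utero, to 218.1 on those of the culture with vinclozolin and to 107 on those with flutamide, so no further scaling was applied and levels across these sets were not tested. Of 31099 probe sets, 57 controls were left out. Symbols came from the platform annotation, with 20826 probe sets of 1 symbol, 436 of several and 9780 of none.

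Log2(intensity + 16) was modelled in limma 3.58.1 (R 4.3.3) by group means over all 20 arrays together (residual degrees of freedom 10, prior 6.76), with a variance trend. P-values are two-sided and were adjusted by the Benjamini-Hochberg method over 22526 probe sets with a threshold of 0.05. A difference between 2 groups had a median SE of 0.24.

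The members and lists were chosen with earlier results of these data known. All probe sets of the 7 symbols were named. Of a list, the probe set of highest mean log2 value stood for a gene, and up to 4 genes of smallest p were named. The likeness of patterns names the 3 genes of highest Pearson correlation. One listed gene is not reported here. Names beyond this rule, such as Xist and Eif2s3y, were chosen after their values were seen.

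The alternatives were quantile normalisation within an experiment, pseudocounts of 1 and 64, no filter, only the arrays of the experiment, the replicate number as a block, vehicle arrays only, each array left out in turn, and leaving out both E13 arrays numbered 1. Leaving out the 4 arrays of higher summed Xist in their E13 or E14 group was added after the data were seen. The fit was tested on simulated data. Motifs were searched with Python 3.11.15 in promoters from RefSeq, and the array files name no genome build.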

Additional observations from a re-analysis of the deposited data

How the results depend on the processing

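Over 70 results on the 7 probe sets, 1001 alternative values were computed, of which 923 kept direction and call, 9 lost a call, 1 gained one and 68 changed sign, 0 of them in a called result. With vehicle arrays only, the counts of called probe sets of the 7 were 3 for E14 minus E13 and 3 for E16 minus E14, against 7 and 5. In that fit Pdgfra E16 minus E14 was -0.014, and E16 minus E13 was -0.017 for Pdgfa, -0.57 for Pdgfrb 1379211_at and -0.45 for Pdgfrb 1391394_s_at. Quantile normalisation gave -0.053 for Pdgfra E16 minus E14, 0.021 for Pdgfrb 1370642_s_at E16 minus E13, and -0.11 for Dhh and 0.053 for Pdgfra under vinclozolin at E16. A pseudocount of 1 gave -0.022 for Pdgfrb 1379211_at E16 minus E13. Without both E13 arrays numbered 1, and equally without the 4 arrays of higher Xist, E16 minus E13 was -0.054 for Pdgfa and 0.14 for Pdgfrb 1370642_s_at, and vinclozolin at E13 gave 0.052 for Pdgfa and 0.056 for Pdgfrb 1370642_s_at. Without those 4 arrays, Pdgfrb 1370642_s_at was 0.17 under vinclozolin at E14, and Dhh was -0.010 as the mean of stages. The cause of these changes was not tested. Added after the data were seen, that fit kept the counts of 7, 5 and 2 called in the stage steps.

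Leaving out 1 array at a time, E16 minus E13 ranged from -0.0063 to 0.29 for Pdgfa and, for Pdgfrb, from -0.24 to 0.18 (1370642_s_at), -0.23 to 0.25 (1379211_at) and -0.13 to 0.29 (1391394_s_at). Under vinclozolin at E13 the ranges were -0.92 to 0.41 for Dhh, -0.83 to 0.66 for Gli1, -0.23 to 0.22 for Pdgfa, -0.037 to 0.10 for Pdgfra, -0.27 to 0.17 for Pdgfrb 1370642_s_at, -0.32 to 0.53 for Pdgfrb 1391394_s_at and 0.034 to 1.00 for Pdgfrb 1379211_at. At E14 they were 0.14 to 1.36 for Dhh, -0.096 to 0.16 for Gli1 and -0.35 to 0.026 for Pdgfrb 1370642_s_at, and at E16 -0.16 to 0.17 for Dhh, -0.31 to 0.18 for Gli1, -0.12 to 0.081 for Pdgfra, 0.014 to 0.61 for Pdgfa and 0.0075 to 0.86 for Pdgfrb 1370642_s_at. As the mean of stages they were -0.055 to 0.39 for Dhh, -0.29 to 0.21 for Gli1 and -0.069 to 0.21 for Pdgfrb 1370642_s_at. With vinclozolin in culture they were -0.36 to 0.16 for Dhh, -0.11 to 0.15 for Gli1, -0.32 to 0.34 for Pdgfa, -0.16 to 0.14 for Pdgfra and -0.44 to 0.044 for Pdgfrb 1370642_s_at, and with flutamide -0.26 to 0.11 for Dhh and -0.058 to 0.11 for Pdgfa. Dhh E16 minus E13 was called without E13 vehicle replicate 2 (0.99, adjusted p = 0.0171). The lone array of a group was assumed to vary like the others.

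Over all probe sets, the calls of E14 minus E13 were 5643, against 659 with vehicle arrays only and 3654 without E14 vinclozolin replicate 1. Those of E16 minus E14 were 9339, against 4957 with vehicle only. Those of E16 minus E13 were 4223, against 1925 with vehicle only, 2436 without both E13 arrays numbered 1 and 2748 without E16 vinclozolin replicate 1. For vinclozolin at E14 they were 1, against 272 without E14 vehicle replicate 2, and at E16 0, against 28 without E16 vehicle replicate 2 and 5 with a pseudocount of 1. In the other antiandrogen comparisons no alternative made more than 13 calls. The replicate number as a block left the counts of the 7 probe sets at 7, 5, 2 and, for antiandrogens, 0. Same-numbered arrays deviated together at E13 (r = 0.60) and little elsewhere (-0.11 to 0.12), and the labels do not say that numbers pair them. The 2 arrays per group limit the precision, and signal over background was not given by detection calls.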
